A study of Mus musculus with 2 samples.

Results

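D cyclins and CDK inhibitors are the genes that set whether a progenitor enters or leaves the cell cycle. The group was chosen by gene symbol and holds 10 genes of the 21628 entries in the expression table: the D cyclins *Ccnd1*, *Ccnd2* and *Ccnd3*, the Cip/Kip inhibitors *Cdkn1a*, *Cdkn1b* and *Cdkn1c*, and the INK4 inhibitors *Cdkn2a*, *Cdkn2b*, *Cdkn2c* and *Cdkn2d*. All 10 had a row with a number for both populations. The study used newborn (P0) Sox2GFP mice, in which GFP reports activity of the *Sox2* gene, a transcription factor of lingual progenitors and taste bud precursors. Lingual epithelium of several pups was pooled and dissociated with enzymes, and FACS collected GFP_High and GFP_Low cells, about 100000 of each. Both populations have the same genotype and age, their labels name no treatment, and they differ in the brightness of GFP. RNA of each population made 1 stranded mRNA library, read as single reads of 50 nt to a labelled depth of about 75M reads, so no difference has a replicate check and no test was possible.

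A D cyclin joins CDK4 or CDK6, and the pair phosphorylates the retinoblastoma protein, which releases E2F factors and lets the cell pass from G1 into S phase. INK4 proteins bind CDK4 and CDK6 and keep D cyclins away from them, while Cip/Kip proteins bind assembled cyclin and kinase pairs and block mainly those with CDK2. In stratified epithelia such as that of the tongue, cycling is largely held to the basal layer, and cells that move up leave the cycle as they differentiate.

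Values are FPKM, sequenced fragments scaled for the length of the transcript and the size of the library, which puts genes on the same scale. Levels set side by side between genes are less certain where a gene shares sequence with transcripts of another gene. A gene was called higher in a population at 5 FPKM or more there and a ratio of 1.5 or more. *Sox2* itself had 112 FPKM in GFP high against 59.0 in GFP low cells, 1.90-fold higher in GFP high. The basal keratinocyte keratin *Krt5* had 9667 FPKM in GFP high against 10422 in GFP low cells, and the pan-leukocyte gene *Ptprc* had 0.060 and 0.020, so both libraries carried the markers of epithelium that their label names.

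Of the 10 genes, *Ccnd1* was called higher in GFP low cells, and *Cdkn1c* and *Cdkn2b* were called higher in GFP high cells. *Cdkn2a* was under 5 FPKM in both libraries and could not be called, and the other 6 genes differed by less than 1.5-fold. Among the 10760 genes that could be called, 9.48% were called higher in GFP high cells and 8.90% were called higher in GFP low cells. The counts were 2 and 1 for the 9 D cyclin and inhibitor genes that could be called. With 9 genes, 1 call is 11.1%, so these counts lie too near the background to set the group apart, and what follows describes its genes singly. When each library was divided by its FPKM sum (TPM), every log2 ratio of GFP high over GFP low fell by 0.10. The calls among all genes then became 7.54% toward GFP high and 11.4% toward GFP low, the GFP high share of all calls went from 51.6% to 39.8%, and the group kept 1 call in each direction, *Cdkn2b* and *Ccnd1*.

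**Figure D1:**
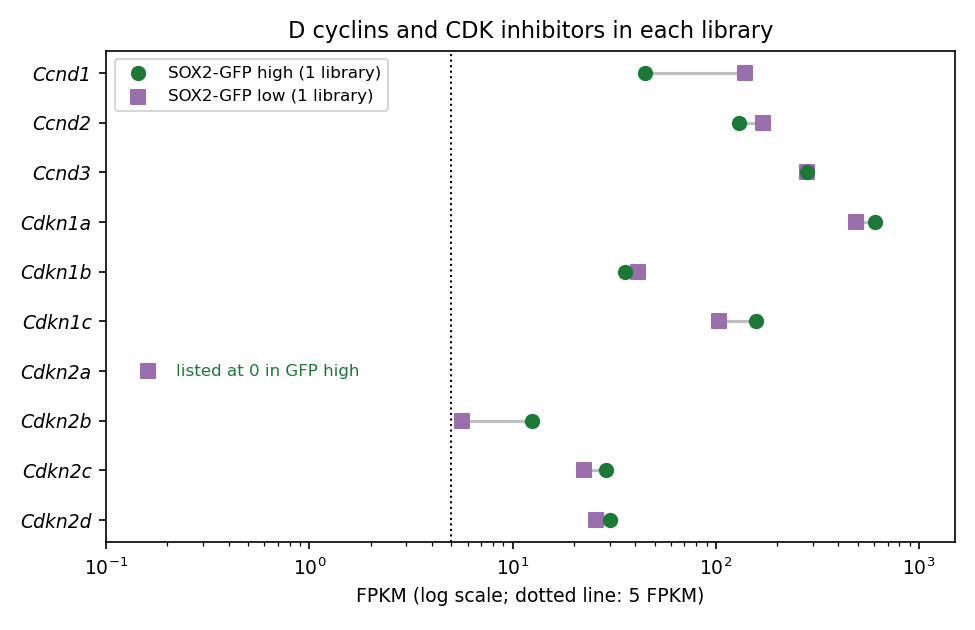
FPKM of the 10 genes on a log axis, with a circle for the GFP high library, a square for the GFP low library and a dotted line at 5 FPKM. The symbols of *Ccnd1* lie farthest apart among the genes above the line, at 44.9 and 139.8 FPKM, and *Cdkn2a* has a symbol for GFP low only because it was listed at 0 in GFP high.

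The D cyclins are the regulatory partners of CDK4 and CDK6, and *Ccnd1* showed the widest difference of the 9 genes that could be called. *Ccnd1* (ENSMUSG00000070348, chr7:144929931-144939925, minus strand, mm10) is the D cyclin that mitogens and Wnt signals induce. The GFP high library had 44.9 FPKM of it and the GFP low library 139.8. This is 3.11-fold higher in GFP low cells, a log2 ratio of -1.64 for GFP high over GFP low, and 2.2% of the genes that could be called had a ratio as low or lower. The gene stood at percentile 74.5 of all entries above 0 in GFP high cells but at percentile 92.5 in GFP low cells. In pooled cells, fewer cells of a type and less RNA per cell cannot be told apart.

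*Ccnd2* (ENSMUSG00000000184, chr6:127125162-127152193, minus strand), a D cyclin tied to progenitor expansion in several tissues, had 129.5 FPKM in GFP high against 172 in GFP low cells. Its 1.32-fold higher level in GFP low was not called. *Ccnd3* (ENSMUSG00000034165, chr17:47505051-47599691, plus strand), the D cyclin that many differentiating cells keep, had 281 and 282 FPKM. It lay level between the populations, and its small difference changed sign when the libraries were scaled to a median ratio of 1 (1.02-fold higher in GFP high). The order of levels was *Ccnd3*, *Ccnd2*, *Ccnd1* in both libraries, and no spread between replicates was there to say which neighbours in that order differ. *Ccnd2* and *Ccnd1* lay close in GFP low cells and far apart in GFP high cells.

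The make-up of the D cyclins therefore differed more than their sum. The 3 genes summed to 456 FPKM in GFP high against 594 FPKM in GFP low cells, 1.30-fold higher in GFP low. *Ccnd1* made 9.86% of the sum in GFP high against 23.6% in GFP low cells, *Ccnd2* 28.4% and 28.9%, and *Ccnd3* 61.7% and 47.5%. A share within a library does not move with the scaling of that library. *Ccnd1* stood at 0.160 of the *Ccnd3* level in GFP high, against 0.495 in GFP low cells.

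**Figure D2:**
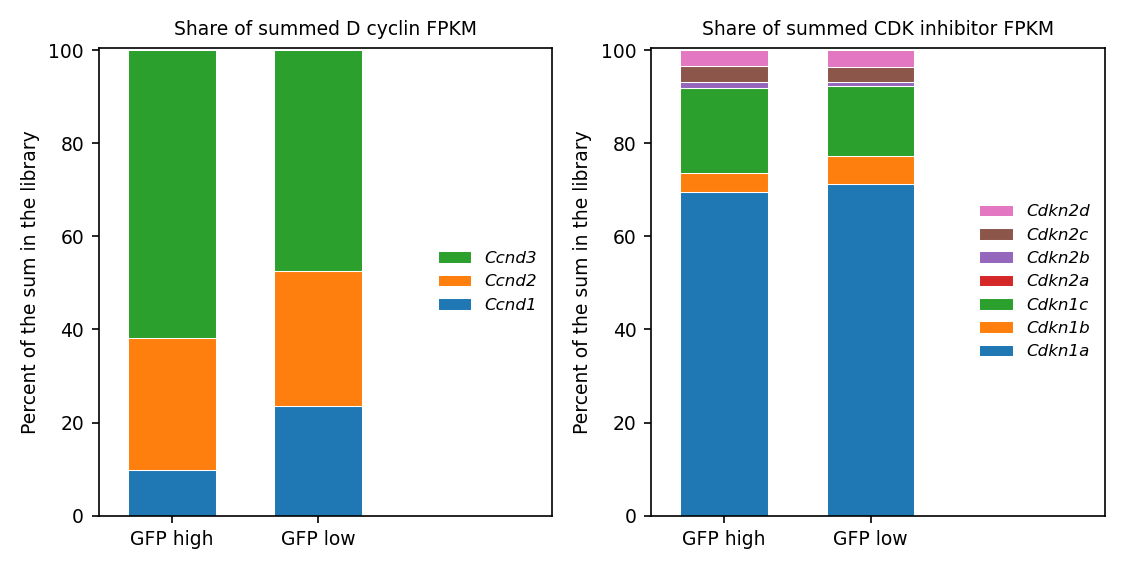
Percent of the summed FPKM of the D cyclins (left) and of the CDK inhibitors (right) that each gene made in the GFP high and the GFP low library. *Ccnd1* takes 9.86% of the D cyclin bar in GFP high against 23.6% in GFP low, while the inhibitor bars are both filled mainly by *Cdkn1a*.

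Markers of other cell types moved with *Ccnd1*. All 7 basal keratinocyte markers were lower in GFP high cells (median log2 difference -0.38, with 1 added to each FPKM), but only *Itgb4* was called (with *Krt14* as well on the TPM scale). Their sum was 25796 FPKM in GFP high against 32952 in GFP low cells, *Krt5* was the most abundant, and none was at 0. *Ccnd1* divided by this sum was 2.44-fold higher in GFP low cells, divided by the suprabasal keratinocyte sum 11.4-fold. Of 11 fibroblast markers, 5 of the 6 that could be called were called higher in GFP low cells and none in GFP high cells. A higher level in GFP high, not called, was seen for 2 of the 11. These were *Twist2* (2.27 and 0.50 FPKM) and *Thy1* (19.6 and 16.2 FPKM). The 11 markers summed to 434 FPKM in GFP high against 1840 in GFP low cells, led by *Col3a1* at 193 and 966 FPKM, and none was at 0. *Pdgfra*, a receptor that defines fibroblasts, was at 1.42 and 1.46 FPKM.

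Of 7 Schwann lineage markers, 5 of the 6 that could be called were higher in GFP low cells, with no marker at 0. They summed to 75.2 FPKM in GFP high against 283 in GFP low cells. *Erbb3*, which epithelium also expresses, had 60.2 and 66.9 FPKM, while *Sox10*, a defining factor of the lineage, had 0.51 and 42.7 FPKM. Against the fibroblast sum *Ccnd1* was 1.36-fold higher in GFP high cells, and against the Schwann lineage sum 1.21-fold higher in GFP high cells, the opposite direction to its own level. *Erbb3* weighed heavily in the latter: without it, a calculation chosen after seeing the data, the other 6 markers summed to 14.9 and 216 FPKM and *Ccnd1* against them was 4.65-fold higher in GFP high cells. The part of these cell types in the *Ccnd1* difference was not tested. The 3 genes nearest to *Ccnd1* in log2(FPKM + 1) over the 2 libraries were *Fam167a* (distance 0.162), *Plxna2* (0.264) and *Frem2* (0.316), with 128, 117 and 161 FPKM in GFP low cells.

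The *Ccnd1* exons overlap those of *Oraov1*, a gene on the opposite strand, and 21.6% of the 50-nt windows of *Ccnd1* occur in transcripts of another gene, none of them on the same strand. *Oraov1*, named after its values were seen, had 32.4 FPKM in GFP high against 34.2 in GFP low cells. The kit keeps the strand, but whether the FPKM used it is not given in the sources used here, so reads of the overlap cannot be assigned with certainty.

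The Cip/Kip inhibitors held most of the inhibitor RNA, and 1 of them was called. *Cdkn1a* (ENSMUSG00000023067, chr17:29090976-29100727, plus strand) encodes p21, the classic p53 target that stops the cycle after damage or at differentiation. It had 609 FPKM in GFP high against 492 in GFP low cells, at percentiles 98.9 and 98.6. It was the most abundant of the 10 genes in both libraries, and its 1.24-fold higher level in GFP high was not called. *Cdkn1b* (ENSMUSG00000003031, chr6:134920401-134925513, plus strand) encodes p27, which is controlled largely by protein turnover. It had 35.8 FPKM in GFP high against 41.6 in GFP low cells, and its 1.16-fold higher level in GFP low was not called.

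*Cdkn1c* (ENSMUSG00000037664, chr7:143458339-143461050, minus strand) encodes p57, an imprinted inhibitor expressed from the maternal allele and linked to cell cycle exit in embryonic tissues. It had 159 FPKM in GFP high against 104 in GFP low cells. This is 1.53-fold higher in GFP high cells, just past the minimum, and on the TPM scale it was 1.43-fold and no longer called. Of the genes that could be called, 8.87% had a ratio as high or higher. An antisense gene overlaps *Cdkn1c*: 24.9% of its 50-nt windows occur in transcripts of another gene, all on the opposite strand, with the same limit as for *Ccnd1*. The nearest genes over the 2 libraries were *Diap1* (distance 0.0440), *Hsph1* (0.0529) and *Bnipl* (0.0580).

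Promoter sequences were available for 7 of the 10 genes, with 11 start sites, from RefSeq (GRCm38.p6). *Ccnd1*, *Ccnd2* and *Cdkn1c* had no entry. The 250 bases before each start were searched, on both strands, for the p53 decamer and for a pair of adjoining decamers with at most 1 mismatch, for GGGCGG (an Sp1 type GC box), for TGACGTCA (the cAMP response element) and for GTCTG (a sequence that SMAD proteins can bind). Among 32851 promoters of the same length, 7.13% held a p53 decamer, 0.0761% a decamer pair, 32.7% GGGCGG, 1.55% TGACGTCA and 42.2% GTCTG. The *Cdkn1a* promoters are shown because p53 targets were among the genes that differed. The upstream start (chr17:29090729-29090978, plus strand) held 2 p53 decamers. Of these, 1 lies in a decamer pair with 1 mismatch, in capitals, which begins 51 bases before the start. The other (ggactagctt) is not marked. The downstream start (chr17:29093519-29093768, plus strand) held no decamer and 2 GGGCGG matches, in capitals. The *Cdkn2d* window, not shown, held 1 decamer. A match describes letters and does not show that a factor was bound.

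Cdkn1a upstream start: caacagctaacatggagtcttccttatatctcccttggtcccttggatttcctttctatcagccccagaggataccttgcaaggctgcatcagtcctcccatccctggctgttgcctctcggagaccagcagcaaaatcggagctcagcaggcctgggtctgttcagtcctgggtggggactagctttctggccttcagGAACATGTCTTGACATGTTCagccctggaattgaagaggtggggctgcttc

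Cdkn1a downstream start: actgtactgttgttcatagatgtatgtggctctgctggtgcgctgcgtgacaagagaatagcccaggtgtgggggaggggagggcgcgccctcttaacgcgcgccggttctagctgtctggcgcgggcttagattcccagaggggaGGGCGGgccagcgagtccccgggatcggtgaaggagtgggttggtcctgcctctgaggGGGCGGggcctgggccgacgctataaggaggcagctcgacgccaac

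The list of p53 and its targets bears on *Cdkn1a*. Of 16 genes, 5 were called higher in GFP high cells (31.2%, beside 9.48% of all genes) and none in GFP low cells, with a median log2 difference of 0.09 against -0.04 over all genes that could be called. On the TPM scale the list had 4 calls and its median lay just under 0. *Sesn2*, a stress-induced regulator of mTORC1, had 15.5 FPKM in GFP high against 5.67 in GFP low cells (2.73-fold). *Pmaip1*, a BH3-only inducer of apoptosis, had 39.5 and 20.1 FPKM (1.96-fold).

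*Plk2*, a kinase of the Polo family, had 99.6 and 55.7 FPKM (1.79-fold). *Sesn1*, a relative of *Sesn2*, had 92.3 and 54.7 FPKM (1.69-fold). *Btg2*, an antiproliferative factor that stress also induces, had 225 and 143 FPKM (1.57-fold), and it was the call lost on the TPM scale. *Trp53* itself had 129 FPKM in GFP high against 143 in GFP low cells, and its feedback inhibitor *Mdm2* had 63.0 and 68.1. The calls were thus held by a part of the list, while p53, *Mdm2* and *Cdkn1a* differed by less than 1.5-fold. The suprabasal keratinocyte markers (46793 and 12815 FPKM in sum) were higher in GFP high cells as well, and their part in these calls was not tested.

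The INK4 genes had a much lower sum than the Cip/Kip genes, a gap that *Cdkn1a* and *Cdkn1c* made, since *Cdkn1b* lay near *Cdkn2c* and *Cdkn2d*. The 4 INK4 genes summed to 71.4 FPKM in GFP high against 54.0 in GFP low cells, and the 3 Cip/Kip genes to 803 and 637. The Cip/Kip sum was 11.2 times the INK4 sum in GFP high against 11.8 times in GFP low cells, so this balance was almost level.

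*Cdkn2b* (ENSMUSG00000073802, chr4:89306299-89311039, minus strand) encodes p15, an inhibitor that TGF-beta induces in epithelial cells. It had 12.5 FPKM in GFP high against 5.62 in GFP low cells, near the 5 FPKM minimum. This is 2.22-fold higher in GFP high cells, and 3.20% of the genes that could be called had a ratio as high or higher. It was called on the TPM scale too (2.07-fold). None of its 50-nt windows occur in transcripts of another gene. No read counts are given: at the best depth found for each library, 55% of low values in GFP high and 50% in GFP low came within 0.15 of a whole read, where values spread evenly would give 30%. The nearest genes over the 2 libraries were *Upk1b* (distance 0.0287), *Prelid2* (0.0337) and *Mgat4a* (0.0378).

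*Cdkn2a* (ENSMUSG00000044303, chr4:89274471-89294653, minus strand) lies beside *Cdkn2b*. Its separate first exons give p16INK4a, an INK4 protein, and p19ARF, which protects p53 from MDM2. The table holds 1 row for both transcripts, so they could not be told apart. It was listed at 0 in GFP high and had 0.16 FPKM in GFP low cells, and no fold is given. *Mtap*, another gene of the locus that was named after its values were seen, had 12.9 FPKM in GFP high against 8.68 in GFP low cells (1.49-fold, not called). The neighbours on chromosome 4 thus ran from almost no RNA at *Cdkn2a* to the called difference at *Cdkn2b*.

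The promoters of both genes are shown because these neighbours had such different levels. The *Cdkn2b* window (chr4:89311033-89311282, minus strand) held 1 TGACGTCA, in capitals, which begins 46 bases before the start, 1 GTCTG and no GGGCGG. The *Cdkn2a* window at the ARF start (chr4:89294620-89294869, minus strand) held 2 GGGCGG, in capitals. The window at the other *Cdkn2a* start (chr4:89282193-89282442, minus strand) held none of the motifs searched.

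Cdkn2b start: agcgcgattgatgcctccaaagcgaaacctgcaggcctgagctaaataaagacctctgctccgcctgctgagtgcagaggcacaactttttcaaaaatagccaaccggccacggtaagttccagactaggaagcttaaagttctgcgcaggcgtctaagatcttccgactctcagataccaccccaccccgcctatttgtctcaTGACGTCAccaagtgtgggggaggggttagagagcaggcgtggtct

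Cdkn2a ARF start: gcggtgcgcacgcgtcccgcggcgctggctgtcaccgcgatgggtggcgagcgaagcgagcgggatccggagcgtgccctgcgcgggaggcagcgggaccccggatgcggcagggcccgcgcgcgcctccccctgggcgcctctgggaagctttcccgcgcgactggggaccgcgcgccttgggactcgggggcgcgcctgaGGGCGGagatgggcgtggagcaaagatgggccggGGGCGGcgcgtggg

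Cdkn2a other start: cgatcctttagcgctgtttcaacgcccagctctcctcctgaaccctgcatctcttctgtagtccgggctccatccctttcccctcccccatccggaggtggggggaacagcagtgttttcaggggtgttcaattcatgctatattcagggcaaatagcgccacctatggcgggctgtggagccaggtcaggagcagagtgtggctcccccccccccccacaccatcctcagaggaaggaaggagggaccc

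*Cdkn2c* (ENSMUSG00000028551, chr4:109660876-109667189, minus strand), which encodes p18, had 28.8 FPKM in GFP high against 22.5 in GFP low cells (1.28-fold, not called). *Cdkn2d* (ENSMUSG00000096472, chr9:21288410-21291407, minus strand), which encodes p19INK4d, had 30.1 and 25.7 FPKM (1.17-fold, not called). These genes made most of the INK4 sum in both libraries. *Cdkn2b* made 17.5% of it in GFP high against 10.4% in GFP low cells, *Cdkn2c* 40.3% and 41.7%, and *Cdkn2d* 42.2% and 47.6%.

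Over all 7 inhibitors, 5 had a higher level in GFP high cells and 2 (*Cdkn1b* and *Cdkn2a*) in GFP low cells, a split that held on the TPM and median scales. Their sum was 875 FPKM in GFP high against 691 in GFP low cells (1.27-fold). *Cdkn1a* made 69.6% of it in GFP high against 71.2% in GFP low cells, *Cdkn1c* 18.1% and 15%, and *Cdkn1b* 4.10% and 6.02%. The D cyclin sum divided by the inhibitor sum was 0.521 in GFP high against 0.859 in GFP low cells, 1.65-fold higher in GFP low. *Ccnd1* divided by *Cdkn1a* was 0.0738 and 0.284, 3.85-fold higher in GFP low.

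**Figure D3:**
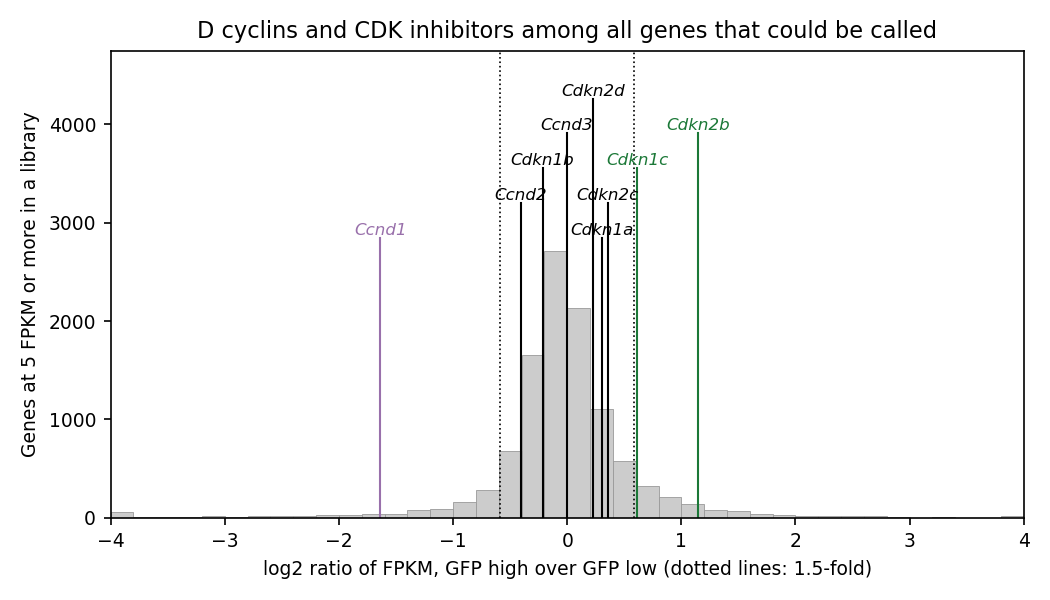
Histogram of the log2 ratio of FPKM, GFP high over GFP low, of the genes at 5 FPKM or more in a library, with dotted lines at 1.5-fold and a vertical line for each of the 9 genes that could be called (the outermost bars hold all values beyond the axis). *Ccnd1* lies at -1.64 and *Cdkn2b* at 1.15, while the lines of the 6 genes not called stand between the dotted lines.

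Most listed markers of differentiated keratinocytes moved with *Cdkn1c* and *Cdkn2b*. Of 8 suprabasal keratinocyte markers, 5 of the 7 that could be called were higher in GFP high cells and none was called toward GFP low (median log2 difference 1.52). *Ivl*, under 5 FPKM in both libraries, went the other way, at 0.67 FPKM in GFP high against 2.19 in GFP low cells. The 8 markers summed to 46793 FPKM in GFP high against 12815 in GFP low cells, led by *Krt13* at 30523 and 9738 FPKM, with none at 0. Divided by this sum, *Cdkn1c* was 2.39-fold and *Cdkn2b* 1.65-fold higher in GFP low cells. Divided by the basal keratinocyte sum, *Cdkn1c* was 1.95-fold and *Cdkn2b* 2.83-fold higher in GFP high cells. Against the fibroblast sum they were 6.48-fold and 9.40-fold higher in GFP high cells, and against the Schwann lineage sum 5.76-fold and 8.35-fold.

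Taste bud markers were mostly higher in GFP high cells too. Of 8 markers, 7 had a higher level there, while *Pou2f3* was at 3.44 FPKM in GFP high against 3.58 in GFP low cells. Only 3 could be called, and all of them were called higher in GFP high. The list summed to 182 FPKM in GFP high against 81.9 in GFP low cells, with none at 0. *Krt19*, at 141 and 65.3 FPKM, made most of the sum, so ratios to the sum rest largely on this gene. Divided by this sum, a calculation chosen after seeing the data, *Ccnd1* was 6.9-fold and *Cdkn1c* 1.45-fold higher in GFP low cells and *Cdkn2b* was level (0.0687 and 0.0686). The 9 endothelial markers summed to 40.5 and 29.1 FPKM, led by *Egfl7*, with 1 call (*Pecam1*, lost on the TPM scale) in GFP high and none at 0. The 6 melanocyte markers summed to 18.5 and 3.91 FPKM, with 1 call, *Mitf* in GFP high, at 17.2 and 1.24 FPKM. *Dct* (0.23 and 0.91 FPKM) and *Tyrp1* (0.04 and 0.88) went the other way, the list median was -0.20, and *Tyr*, which defines the pigment cell, was listed at 0 in both libraries and *Mlana* in GFP high. The 7 leukocyte markers with a row summed to 20.2 and 21.5 FPKM, led by *Cd68*, with no call and *Cd52* listed at 0 in GFP low. The 8 skeletal muscle markers summed to 20.3 and 18.3 FPKM, with *Tnnt3* first in GFP high (8.58 FPKM, the only call) and *Acta1* first in GFP low (8.57 FPKM) and none at 0. The part of any of these cell types in the *Cdkn1c* and *Cdkn2b* differences was not tested.

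**Figure D4:**
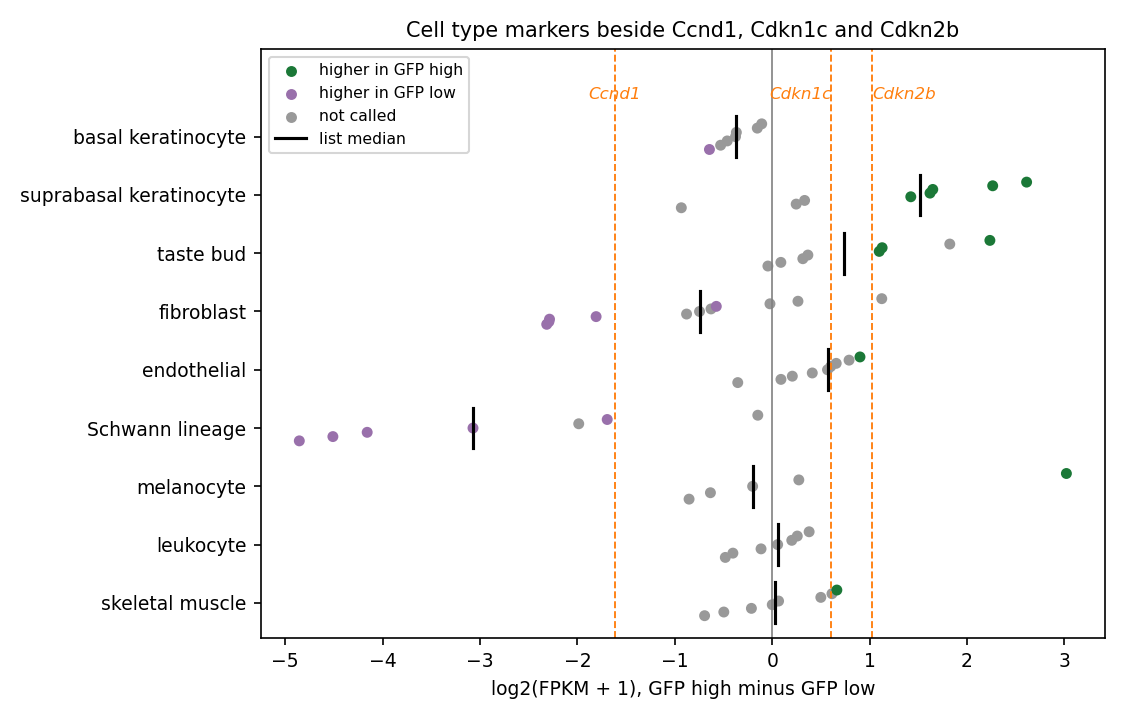
Difference in log2(FPKM + 1), GFP high minus GFP low, of each marker gene in 9 cell type lists, colored by call (grey includes genes under 5 FPKM in both libraries), with a black bar at each list's median and dashed lines at *Ccnd1*, *Cdkn1c* and *Cdkn2b*. The fibroblast and Schwann lineage lists have medians on the side of *Ccnd1*, -0.75 and -3.07. The suprabasal list has its median, 1.52, on the side of *Cdkn2b*. On the other side of 0 lie 2 fibroblast markers and 1 suprabasal marker.

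The genes around the D cyclins and inhibitors were described by 11 lists of 109 genes, of which 108 had a row and 104 could be called. Of these, 10 (9.62%) were called toward GFP high and 10 (9.62%) toward GFP low, a share close to the background in each direction. The partner kinases did not differ by 1.5-fold. None of the 5 genes of CDK4, CDK6 and the CDK-activating kinase was called (median log2 difference 0.01, or -0.08 on the TPM scale). *Cdk4*, the more abundant of the D cyclin partner kinases, had 1248 FPKM in GFP high against 1139 in GFP low cells, and *Ccnh*, the cyclin of the activating kinase, had 60.2 and 63.5. *Cdk4* was 2.74 times the D cyclin sum in GFP high against 1.92 times in GFP low cells, and 17.5 and 21.1 times the INK4 sum.

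The pocket proteins, which CDK4 and CDK6 phosphorylate, and the E2F factors they hold had 1 call each, toward GFP low, where 8.90% of all genes were called. All 3 pocket proteins were lower in GFP high cells, as were 55.4% of all genes that could be called (median -0.22), also on the other scales, and *Rb1*, the retinoblastoma gene, was called higher in GFP low cells at 25.4 and 38.5 FPKM (1.52-fold), a call lost when the libraries were scaled to a median ratio of 1. *Rb1* had 3 entries in the table, of which the most abundant was used. Of 10 E2F and DP factors, 8 were lower in GFP high cells (median -0.20), also on the other scales. Only *E2f3*, an activator of S phase genes, was called, at 17.5 and 29.7 FPKM (1.70-fold higher in GFP low).

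The later cyclins and their kinases were mixed. Of 7 genes, *Cdk1*, the mitotic kinase, was called, at 239 FPKM in GFP high against 142 in GFP low cells (1.69-fold). This 1 call is 14.3% of the list, beside 9.48% of all genes, too near that share to set the list apart. The list median was 0.17 (0.08 on the TPM scale). Of 12 proliferation genes, *Plk1*, a kinase of mitotic entry, was called, at 44.7 and 26.0 FPKM (1.72-fold). This is 8.33% of the list, near the 9.48% of all genes. The median was 0.14 (0.04 on the TPM scale, with 6 genes on each side). Of the 12, 7 had a higher and 5 a lower level in GFP high cells. Of 12 quiescence-linked genes, none of the 11 that could be called was called, with a median of 0.02 (-0.08 on the TPM scale), while their sum was 1153 FPKM in GFP high against 1217 in GFP low cells. The most abundant of them, *Klf4*, had 599.9 and 685 FPKM, and *Gas6* had 260.1 and 239.

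Regulators of p27 and cyclin D turnover had 1 call among the 10 of 11 genes that could be called (median 0.08, or -0.02 on the TPM scale). This share is too near the 9.48% of all genes called higher in GFP high cells to set the list apart. The called gene was *Ambra1*, an adaptor of the ligase that degrades D cyclins, at 56.4 FPKM in GFP high against 32.8 in GFP low cells (1.72-fold higher in GFP high). D cyclin protein was not measured.

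**Figure D5:**
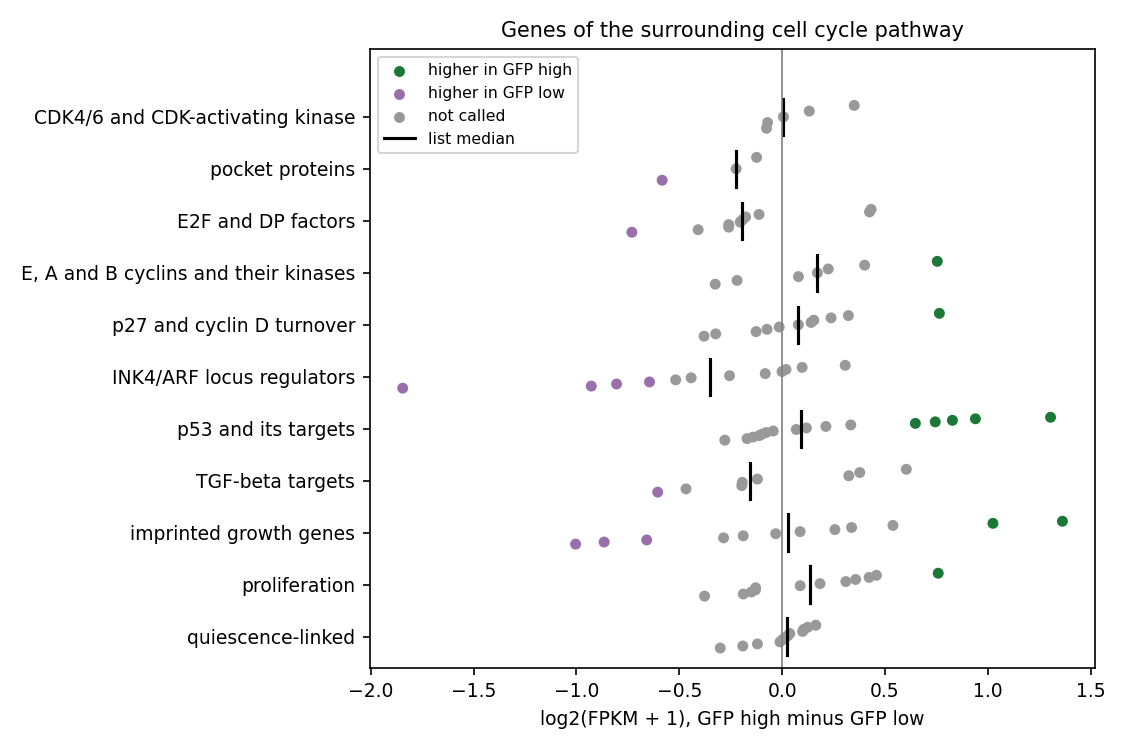
Difference in log2(FPKM + 1), GFP high minus GFP low, of each gene in 11 lists of the surrounding pathway, colored by call (grey includes genes under 5 FPKM in both libraries), with a black bar at each list's median. The calls of the INK4/ARF locus regulators lie to the left, at a list median of -0.35, and those of the p53 list to the right, at a list median of 0.09.

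Regulators of the INK4/ARF locus, both repressors and activators, had calls to the GFP low side. Of 12 genes, 4 of the 11 that could be called were higher in GFP low cells (36.4%, beside 8.90% of all genes) and none in GFP high cells (median -0.35, and below 0 on each scale). The fibroblast markers (434 and 1840 FPKM in sum) and the Schwann lineage markers (75.2 and 283 FPKM) were higher in GFP low cells as well, and their part in these calls was not tested. *Tbx2*, a T-box repressor of the locus, had 24.1 FPKM in GFP high against 42.8 in GFP low cells (1.78-fold), and its relative *Tbx3* had 32.7 and 63.0 FPKM (1.93-fold). *Ets1*, an activator of p16INK4a, had 4.26 and 17.9 FPKM (4.2-fold). *Id2*, a relative of the ETS antagonist ID1, had 68.3 and 107 FPKM (1.57-fold). The called genes therefore included both repressors and an activator, and the Polycomb gene *Bmi1* was level at 25.3 and 25.4 FPKM.

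TGF-beta targets, the other group tied to *Cdkn2b*, had 1 call in 7 genes that could be called of 8, toward GFP low (14.3%, beside 8.90% of all genes, median -0.16, and below 0 on each scale), and 2 on the TPM scale. Their sum went the other way except on the TPM scale, at 376 FPKM in GFP high against 362 in GFP low cells. The call was *Ctgf*, a matrix-associated growth factor, at 16.5 FPKM in GFP high against 25.6 in GFP low cells (1.55-fold), a gene whose exons partly overlap a transcript of the opposite strand. Of the 8 genes, 3 had a higher level in GFP high cells, the side of *Cdkn2b*, and 5 in GFP low cells.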

How the data were processed

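RNA of 1 library of GFP high and 1 of GFP low cells was compared. The authors trimmed reads with Trimmomatic 0.36, aligned them to mm10 with GSNAP and computed FPKM with Cufflinks 2.2.1, deposited to 2 decimals. The columns are named as means, but the labels give 1 library each, and each was read as that library's value. A fold score, also deposited by the authors, holds a signed ratio of the populations and was not used.

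The 21 entries with another type than protein-coding in GENCODE M21 were dropped, leaving 21607, of which 17 had no number in a library. Ratios of FPKM were computed with Python 3.11.15, pandas 2.3.3 and numpy 2.4.6 and called at 5 FPKM and 1.5-fold. List medians use log2(FPKM + 1) and leave out genes at 0 in both libraries. Positions, exons and shared 50-nt windows come from the annotation. The calls were tested on simulated data. No p-value was computed.

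The 10 genes and all lists were chosen with earlier results of these data known. The text names the 10 genes, the 3 nearest genes to each called one, the called genes of each pathway list or, with none, the 2 most abundant, and marker genes. Other named genes and the motifs were chosen after values were seen. Values were recomputed with a minimum of 1, 10 or 0 FPKM or of 5 in both libraries, with 2-fold as the smallest ratio, with a pseudocount of 0.1, 1 or none, with genes of a mean of 1 FPKM, with TPM, with scaling to a median ratio of 1 (GFP low multiplied by 0.973) and with the whole table.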

Additional observations from a re-analysis of the deposited data

How the results depend on the processing

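At a 2-fold minimum, the genes of the group higher in GFP high cells went from 2 to 1 (*Cdkn2b*), the pathway genes higher in GFP high from 10 to 3 and those higher in GFP low from 10 to 2. On the TPM scale the group had 1 gene higher in GFP high cells, because every ratio moved by -0.10 on the log2 scale and *Cdkn1c* fell under 1.5-fold. With no FPKM minimum the genes higher in GFP low went from 1 to 2, the second being *Cdkn2a* at 0.16 FPKM. The median log2 difference of the 10 genes, 0.11, was 0.23 without a pseudocount and 0.22 for genes with a mean of at least 1 FPKM, since both settings leave out *Cdkn2a*, and it was 0.0089 on the TPM scale. *Ccnd1* against the Schwann lineage sum went from 1.21-fold to 4.65-fold without *Erbb3*. The other 53 recomputed values kept their call or, for counts and medians, lay within 1.5 times, and no called gene changed sign. No paired analysis was possible because each population has 1 library, and for the same reason no library could be left out. Low levels limit *Cdkn2a* most and *Cdkn2b* next.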

Other observations

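Imprinted growth genes, the class to which *Cdkn1c* belongs, went in both directions. Of 13 genes 12 had a row, and 2 (16.7%, beside 9.48% of all genes) were called higher in GFP high and 3 (25%, beside 8.90%) in GFP low (median log2 difference 0.03, or -0.07 on the TPM scale). *Dlk1*, a Notch ligand relative, had 742 FPKM in GFP high against 288 in GFP low cells (2.58-fold), and *Zim1*, a zinc finger gene, had 32.4 and 15.4 FPKM (2.10-fold). *Grb10*, an adaptor that restrains insulin and IGF signals, had 28.9 and 53.4 FPKM (1.85-fold higher in GFP low), *Mest*, which shares 21.2% of its windows with the opposite strand, 16.2 and 26.2 FPKM (1.61-fold) and *Sgce* 6.12 and 13.3 FPKM (2.17-fold). *Igf2*, on the same imprinted region of chromosome 7 as *Cdkn1c*, was listed with 4178 FPKM in GFP high against 3306 in GFP low cells (1.26-fold, not called). However, 62.1% of its windows occur in transcripts of another gene, nearly all on the same strand, so its level is uncertain. *Phlda2* (chr7:143501545-143503150), which lies nearer to *Cdkn1c*, was level at 12.3 and 12.6 FPKM (1.02-fold higher in GFP low, not called).

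Values of 3 commonly abundant genes, named after their values were seen, differed widely. *Gapdh* had 10.7 FPKM in GFP high against 20.04 in GFP low cells, with 25.1% of its windows in transcripts of another gene (24.7% on the same strand). *Ppia* had 6.55 and 8.22 FPKM with 17.3% of its windows shared, and *Actb* 1740 and 1208 FPKM with 9.12%. A link between shared windows and low values was not tested.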
